A study of Mus musculus with 2 samples.

Results

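The phagocyte NADPH oxidase subunits examined here were 7 genes, Cybb, Cyba, Ncf1, Ncf4, Rac1, Rac2 and Hvcn1, out of 18193 genes that the arrays read by a probe set with 1 gene symbol. They were taken by name from the platform annotation, which gave them 14 probe sets, with no threshold on measured values, although earlier results of these data were known when the genes were chosen. The series compared 2 cultures of bone marrow cells from C57BL/6 mice. One culture was transfected with a control siRNA and the other with silncMDSC, which silences lncMDSC, a long non-coding RNA that the study calls lnc-C/EBPβ. The labels call the control an siRNA, whereas the paper lists shRNAs against this RNA and names no reagent for the arrays. Over the next 4 days both cultures received IL-6 together with GM-CSF, under which bone marrow cells become myeloid-derived suppressor cells (MDSCs), immature myeloid cells of a neutrophil-like and a monocyte-like kind. Total RNA of each whole culture went onto 1 Affymetrix mouse array, so the control siRNA group and the silncMDSC group held 1 sample each, and no difference below has a replicate check or a p-value. No probe set was named for lncMDSC, so the knockdown was not analysed here. Neither the labels nor the methods state the age and sex of the mice.

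The phagocyte NADPH oxidase, or NOX2 complex, moves electrons from NADPH across a membrane onto oxygen and so makes superoxide, the first product of the respiratory burst. In a resting cell the flavocytochrome in the membrane and the regulatory subunits in the cytosol are apart, and phosphorylation and an active Rac GTPase bring them together. Reactive oxygen species made by this enzyme are among the means by which neutrophil-like MDSCs restrain T cells, and inherited loss of its subunits causes chronic granulomatous disease.

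The RefSeq promoter table held a start site for 3 of the 7 genes, Cybb, Cyba and Ncf1. The 150 bases that precede each start are shown because the study is about C/EBPβ, whose levels are given below beside those of the oxidase genes. All 3 lie on the minus strand of GRCm38.p6, at chrX:9469325-9469474 for Cybb, chr8:122432941-122433090 for Cyba and chr5:134229626-134229775 for Ncf1. They read 5′ to 3′ towards the gene, and capitals mark GGAA (or TTCC), the core that ETS factors such as PU.1 bind, and CCAAT (or ATTGG).
Cybb: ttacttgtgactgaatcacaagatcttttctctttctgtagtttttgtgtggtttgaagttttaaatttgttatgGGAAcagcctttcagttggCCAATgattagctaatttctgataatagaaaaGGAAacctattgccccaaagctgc
Cyba: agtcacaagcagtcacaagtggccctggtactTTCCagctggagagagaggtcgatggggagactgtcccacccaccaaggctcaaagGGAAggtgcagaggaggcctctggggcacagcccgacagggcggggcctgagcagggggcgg
Ncf1: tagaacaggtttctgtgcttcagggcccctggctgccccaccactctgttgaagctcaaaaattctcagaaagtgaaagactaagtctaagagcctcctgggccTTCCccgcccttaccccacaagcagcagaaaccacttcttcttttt

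The Cybb window had 35.3% G and C, against 64.7% for Cyba, 50.7% for Ncf1 and a median of 54% over 32851 promoter windows of the same length. GGAA occurred at 2 places in the Cybb window, 2 in the Cyba window and 1 in the Ncf1 window, on either strand, and 80.8% of all windows held it. The CCAAT box was found in the Cybb window alone of the 3, from 56 to 52 bases before the start, and 24.5% of all windows held one. TTGCNNAA (TTNNGCAA on the other strand), letters of the C/EBP type, was in none of the 3 windows and in 5.46% of all windows. None of the 3 motifs overlapped another in these windows. These matches describe the letters only.

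All 7 oxidase genes were read well above the floor on both arrays, and all 7 were nearly level between the cultures on their brightest probe sets. The floor was the median intensity of all probe sets, 78.4. With each gene read from its brightest probe set, the differences in log2(intensity + 1), silncMDSC minus control siRNA, ran from -0.05 for Cyba to 0.10 for Ncf4. Ncf4, Rac2, Ncf1 and Cybb were on the side of silncMDSC, and Cyba, Hvcn1 and Rac1 on the side of control siRNA, although Rac1 turned to the other side (0.003) when the arrays were quantile normalized. The median of the 7 was 0.02, beside -0.002 over the 11920 genes above the floor. At the 2-fold size named in the study's methods, 0 of 7 members were apart, and 0.302% of all genes above the floor were. At 1.5-fold the count was again 0 of 7, against 2.37% of all genes. A count of 0 of 7 is close to these shares, so it is no result about the members. Of all genes above the floor, 42.5% were as close to level as Ncf4, the farthest member. Of the 1018 genes at least as bright as Hvcn1, the dimmest member, 49.5% were. Those shares are for single genes, and whether the 7 together lay unusually close to 0 was not tested.

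Cybb encodes gp91phox, the subunit of flavocytochrome b558 that carries the flavin and the hemes and passes electrons to oxygen. Its brightest probe set, 1436778_at, read 2806 in control siRNA and 2842 in silncMDSC, a log2 difference of 0.02. Probe set 1436779_at had 1519 and 1634 (0.10), and 1422978_at had 655 and 617 (-0.09). The 3 readings of this gene therefore stood on both sides of 0, with 0.19 between the lowest and the highest. Over the 1213 genes with 3 probe sets above the floor the median range was 0.18.

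Cyba encodes p22phox, the partner that stabilizes gp91phox in the membrane and offers the docking site for p47phox. It was read by 1 probe set, 1454268_a_at, with 5108 in control siRNA and 4923 in silncMDSC, a fold of 0.964 and a log2 difference of -0.05. Of the 1000 probe sets nearest in mean level, 616 were at least as far apart. The robust SD (scaled median absolute deviation) of the differences of these neighbors was 0.11, the narrowest around any member. Such a spread holds probe noise and true differences together, and it cannot replace replicate error.

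**Figure D1:**
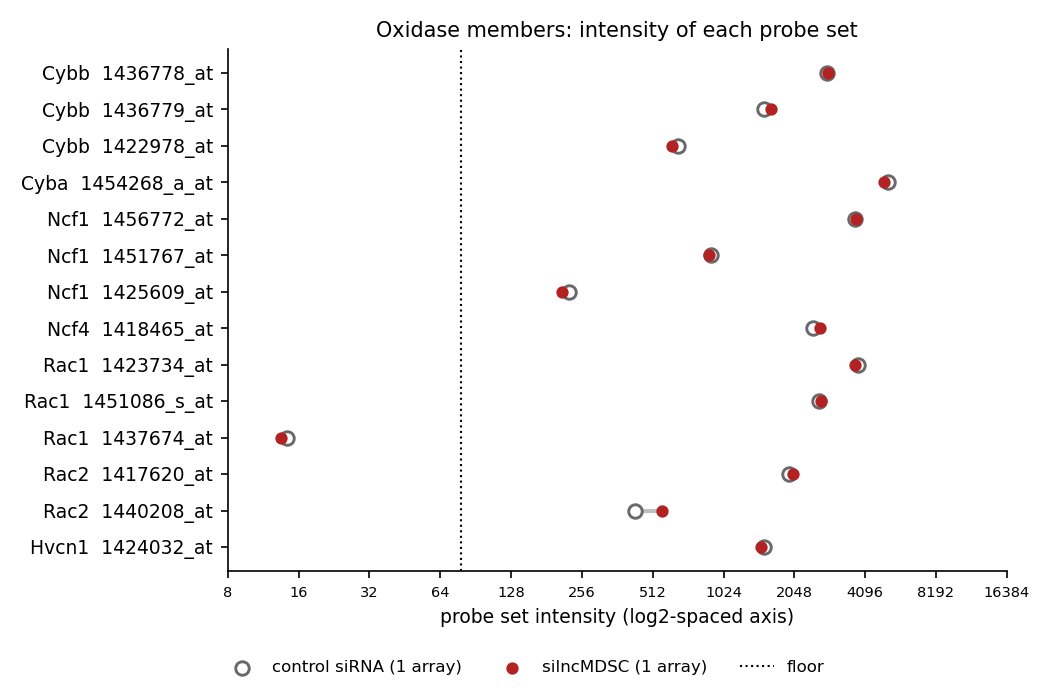
Intensity (x axis, log2-spaced) of each of the 14 probe sets of the 7 oxidase genes (y axis) on the control siRNA array (open circles) and the silncMDSC array (red points), 1 array each, with the floor of 78.4 as a dotted line. The circles and points nearly coincide except for Rac2 probe set 1440208_at (430 and 561), and Rac1 probe set 1437674_at is the 1 reading below the floor.

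The cytosolic subunits showed the same closeness. Ncf1 encodes p47phox, the organizer that is phosphorylated on activation and carries the cytosolic complex to the membrane. Its brightest probe set, 1456772_at, had 3695 in control siRNA and 3742 in silncMDSC (0.02). The other probe sets were slightly lower in silncMDSC, with 904 and 888 on 1451767_at (-0.03) and 227 and 211 on 1425609_at (-0.11). The direction of Ncf1 thus depended on the probe set, and the mean of its 3 differences was -0.04. Ncf4 encodes p40phox, whose PX domain binds phosphatidylinositol 3-phosphate on phagosomes. It had 2460 in control siRNA and 2635 in silncMDSC on its 1 probe set, 1418465_at, a fold of 1.07 and a log2 difference of 0.10. This was the farthest of the 7 genes, yet 542 of the 1000 probe sets nearest in level were at least as far apart.

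Rac GTPases switch the assembled enzyme on when they bind GTP. Rac2 is the form restricted to blood cells and is the main one in neutrophils, whereas Rac1 is made in nearly all cells. Rac1 had 3802 in control siRNA and 3709 in silncMDSC on 1423734_at (-0.04), and 2614 and 2670 on 1451086_s_at (0.03), a probe set whose suffix marks possible cross-hybridization. Its remaining probe set, 1437674_at, was below the floor on both arrays, with 14.3 and 13.4. With the sign of the brightest probe set turning under quantile normalization, no direction is given for Rac1.

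Rac2 was the member whose probe sets disagreed most. On 1417620_at it had 1936 in control siRNA and 2023 in silncMDSC, a fold of 1.04 and a log2 difference of 0.06. On the dimmer 1440208_at it had 430 and 561, a fold of 1.30 and a log2 difference of 0.38. Of the 1000 probe sets nearest to the latter in level, 87 were at least as far apart, and 7.23% of all probe sets above the floor were. The 2 readings lay 0.32 apart, where the median range over the 2939 genes with 2 probe sets above the floor was 0.10 and 9.25% of these genes had a range at least as wide. Both readings were higher in silncMDSC, and which of them follows Rac2 transcripts more closely was not tested.

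Hvcn1 encodes the voltage-gated proton channel, which lets protons out of the cytosol and so balances the charge that the oxidase moves. Its 1 probe set, 1424032_at, had 1526 in control siRNA and 1473 in silncMDSC, a fold of 0.965 and a log2 difference of -0.05. B lymphocytes also make this channel. Of the 5 B cell markers found on the arrays, 4 were above the floor, with a summed intensity of the 5 of 813 in control siRNA and 806 in silncMDSC, Pax5 was below the floor on both arrays, and the brightest, Cd79b and Ms4a1, had 285 and 272 in control siRNA.

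Over the 13 member probe sets above the floor, 7 were higher in silncMDSC and 6 lower, with a median difference of 0.02, and the split was 8 to 5 with the loess trend on level removed and 9 to 4 after quantile normalization. Of these 13, 12 lay within 0.18 of 0, the robust SD over all 23193 probe sets above the floor, and 66.9% of all probe sets did. The exception was Rac2 probe set 1440208_at. For 3 of the 4 genes with more than 1 probe set above the floor, Cybb, Ncf1 and Rac1, the probe sets stood on both sides of 0, and after quantile normalization this held for 2. In each of the 4 genes the range between probe sets was wider than the difference of the gene's brightest probe set.

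**Figure D2:**
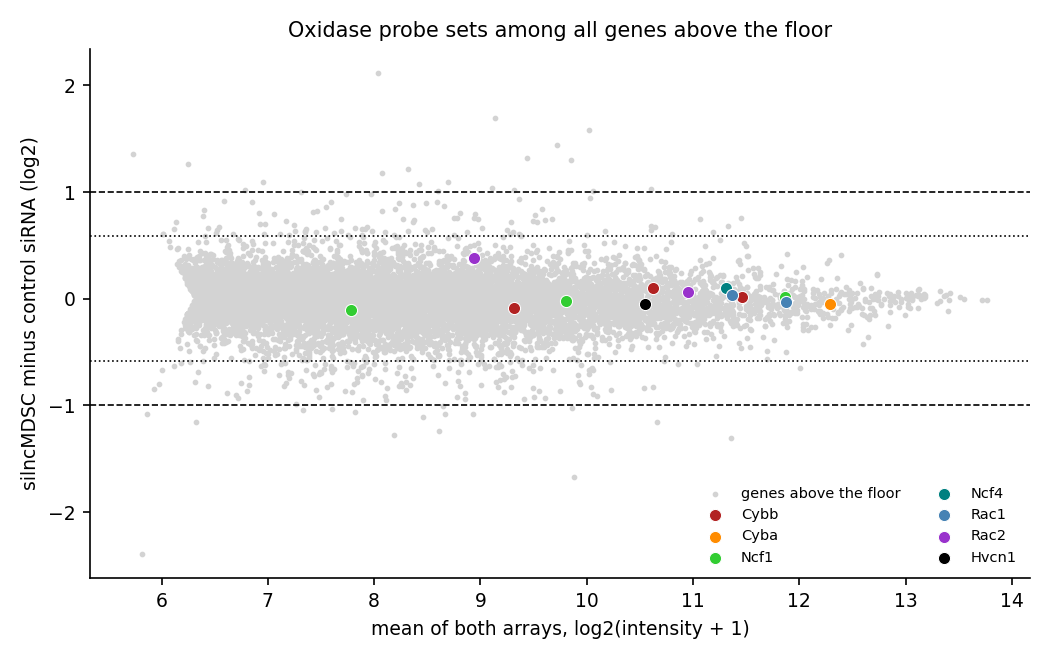
Difference between the arrays (y axis, log2, silncMDSC minus control siRNA) against the mean level of both (x axis, log2(intensity + 1)) for the 11920 genes above the floor (grey) and the 13 oxidase probe sets above it (colored by gene). Dashed lines mark 2-fold and dotted lines 1.5-fold; the oxidase probe sets lie between -0.11 and 0.38, inside all 4 lines.

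The other genes of the oxidase pathway were counted from lists of partners, activators and regulators, each gene read from its brightest probe set. As 2.37% of all genes above the floor were 1.5-fold apart, a count of 0 in lists this short is no result about them. Among the other small GTPases listed with Rac1 and Rac2, Rhog differed by 0.20, Cdc42 by 0.04 on a probe set that can cross-hybridize and by -0.12 to -0.0005 on its other 3, and Rac3 by -0.01, a sign that turned after quantile normalization, and 0 of 5 in that list were 1.5-fold apart. Cybc1, the chaperone that gp91phox and p22phox need to mature, had 1235 in control siRNA and 1267 in silncMDSC (0.04), and 0.13 on its other probe set. With Hvcn1, the ion balance list held Clcn3, a chloride transporter of endosomes (-0.03), and Kcnn4, a potassium channel (-0.004), both of which turned sign after quantile normalization, and 0 of 3 were 1.5-fold apart. Genes of other NADPH oxidases were dim. Nox4 (17.3 at most), Duox1 (20.8 and 20.6) and Duoxa2 (38.3 and 34.6) did not reach the floor on either array, and Duoxa1 (73.7 and 79.2), Noxo1 (75.2 and 84.0) and Noxred1 (85.3 and 86.4) were at its edge, with 0 of these 3 at 1.5-fold. Noxred1 entered that list by its symbol alone and is no subunit of a NADPH oxidase of this family.

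Lipid signals and maturation factors had 0 of 10 genes at 1.5-fold and a median of 0.05. The catalytic and regulatory subunits of the PI3-kinase that chemoattractant receptors activate were both higher in silncMDSC, Pik3cg with 528 and 618 (0.23, and 0.36 on its other probe set) and Pik3r5 with 443 and 552 (0.32). Pla2g4a, the phospholipase that frees arachidonic acid, had 646 in control siRNA and 520 in silncMDSC (-0.31), and the heme-degrading enzyme Hmox1 differed by -0.16. Rac exchange factors and inhibitors had 0 of 20 genes at 1.5-fold and a median of -0.01, with 10 genes on each side (9 higher and 11 lower with the loess trend removed), and the median turned to 0.05 with a floor at the 75th percentile. The Rac activators Prex1 (0.23), Swap70 (0.23) and Tiam1 (0.20) were the farthest to the side of silncMDSC. Arhgdib, which holds Rac GTPases inactive in the cytosol of blood cells, had 6770 and 6011 (-0.17).

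Kinases and lipases upstream of the cytosolic subunits had 0 of 14 genes at 1.5-fold, with 7 genes on each side and a median of -0.02 that turned to 0.03 with the mean of a gene's probe sets. The Src-family kinase Fgr had 1084 in control siRNA and 1315 in silncMDSC (0.28), and 0.19 on its other probe set. Prkcb, a protein kinase C that phosphorylates p47phox, differed by 0.19 and, on its next brightest probe set, by 0.22. Pak2 (-0.19) and Akt1 (-0.25) were lower on their brightest probe sets, but each had another probe set on the opposite side (0.13 for Pak2 and 0.24 for Akt1).

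**Figure D3:**
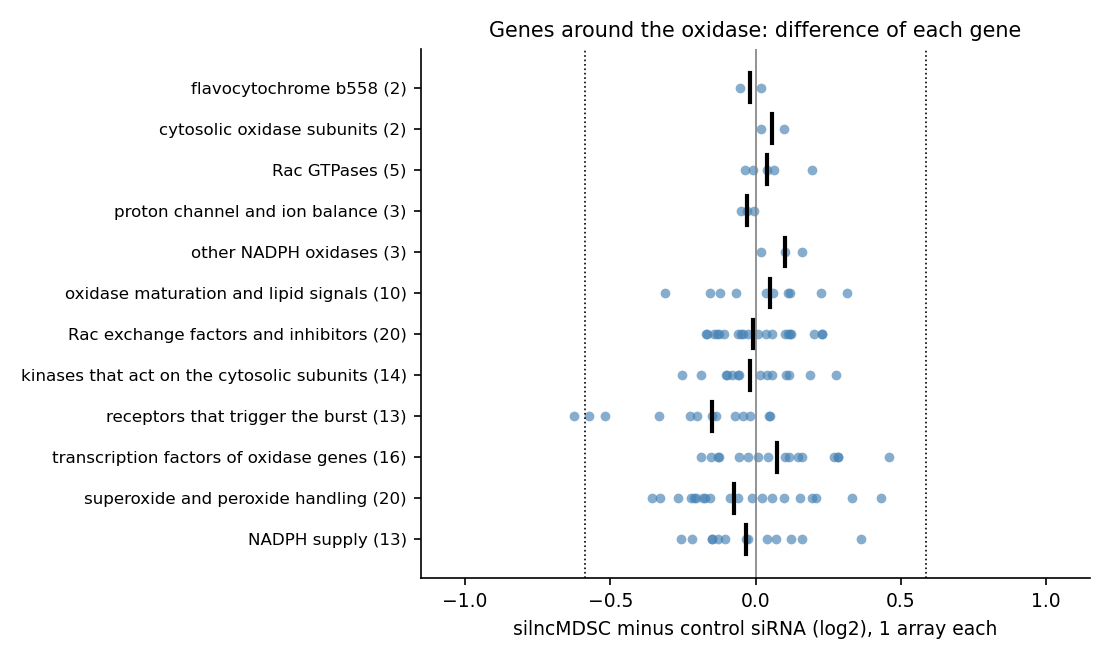
Difference of each gene above the floor (points; x axis, log2, silncMDSC minus control siRNA, 1 array each) in 12 lists of the oxidase pathway (y axis, number of genes in parentheses). Black bars are medians and dotted lines 1.5-fold; the median of the receptors that trigger the burst (-0.15) is the farthest from 0, and C3ar1 (-0.62) is the 1 gene past a dotted line.

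Most genes in the list of receptors that set off the burst read lower in silncMDSC. That list also held Fcgr2b, an inhibitory IgG receptor that does not set off the burst. Fcgr2b had 4693 in control siRNA and 4557 in silncMDSC (-0.04) and is counted among the lower genes. Of the 13 above the floor, 2 were higher and 11 lower, also under each other scaling, where 49.3% of all genes above the floor were higher. At least 1.5-fold lower was 1 of the 13, and the median was -0.15, where 1.42% of all genes were at least 1.5-fold lower. C3ar1, the receptor of the complement fragment C3a, had 1223 in control siRNA and 793 in silncMDSC, 1.54-fold lower, and its other probe sets gave -0.63 and -0.54. Tlr2, a sensor of bacterial lipoproteins, had 1173 and 788 (-0.57). Fcgr1, the high-affinity receptor of IgG, had 1287 and 898 (-0.52), and -0.67 on its other probe set. Tlr4, the endotoxin receptor, had 637 and 507 (-0.33), with -0.33 and -0.35 on its other probe sets above the floor. The probe sets of C3ar1, Fcgr1 and Tlr4 above the floor were thus all on the same side. The other 9 ran from -0.22 for Clec7a, the receptor of fungal beta-glucan, to 0.05 for the integrin chain Itgb2. Of the lower genes, Fcgr3 (-0.02), Fcgr2b, Itgam (-0.07), Fpr2 (-0.14) and Fcgr4 (-0.15) lay within 0.18 of 0, the robust SD over all genes above the floor. P2ry2 and Ptafr did not reach the floor. The difference between these receptors and the oxidase subunits was not tested, since there was 1 array per group.

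**Figure D4:**
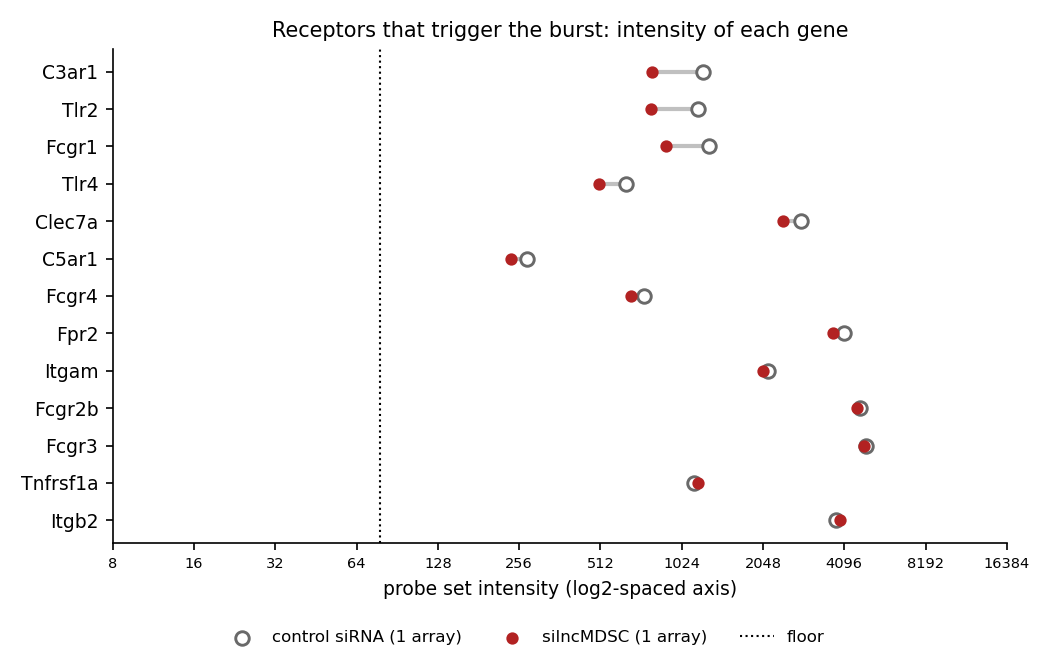
Intensity (x axis, log2-spaced) of the 13 receptor genes above the floor (y axis, ordered from the lowest to the highest difference) on the control siRNA array (open circles) and the silncMDSC array (red points), 1 array each, with the floor of 78.4 as a dotted line. C3ar1, Tlr2, Fcgr1 and Tlr4 show the widest gaps, and Tnfrsf1a and Itgb2 are the 2 genes whose red point is to the right.

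Transcription factors known to act on oxidase genes had 0 of 16 at 1.5-fold and a median of 0.07. Spi1, which encodes PU.1, had 892 in control siRNA and 859 in silncMDSC (-0.06), and Cebpb, the factor that lnc-C/EBPβ binds in the study's model, had 3337 and 3001 (-0.15, and -0.23 on its other probe set). Bcl6, a repressor, had 296 and 407 (0.46), while its other probe set was below the floor. Gata1 (0.29, near the floor with 98.2 and 120), Stat5b (0.28, and 0.05 on its other probe set) and Irf2 (0.27, on a probe set that can cross-hybridize) followed.

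Enzymes that take up superoxide and peroxide had 0 of 20 genes at 1.5-fold and a median of -0.08. Sod2, the superoxide dismutase of mitochondria, had 3661 in control siRNA and 2862 in silncMDSC (-0.35), and its other probe sets above the floor gave -0.39 and -0.61. Txnrd1, which reduces thioredoxin, had 911 and 725 (-0.33). Prdx4, a peroxiredoxin of the secretory pathway, had 831 and 1047 (0.33), and Epx, the peroxidase of eosinophils, had 392 and 529 (0.43). Genes of the NADPH supply list had 0 of 13 at 1.5-fold and a median of -0.03, which turned to 0.06 with the mean of a gene's probe sets. Some listed genes, such as Rpe, encode pentose phosphate enzymes that make no NADPH themselves. Idh1, the cytosolic isocitrate dehydrogenase, had 1266 and 1630 (0.36, and 0.32 on its other probe set), whereas Rpe (-0.26), H6pd (-0.22) and Pgls (0.16) were the next farthest.

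Several of these genes differ between the cell types that such cultures hold, so marker lists were read on the same arrays. The 13 neutrophil markers were all above the floor, 11 were lower in silncMDSC (9 after quantile normalization, which left S100a8 and S100a9 at 0) and 0 were 1.5-fold apart, with a median of -0.09 and a summed intensity of 76716 in control siRNA and 74255 in silncMDSC. S100a9 (13983 and 13880), S100a8 (13474 and 13399) and Ngp (11661 and 11767) were the brightest, and Ly6g was not analysed here. Cxcr2, 1 of the 2 higher in silncMDSC, was the farthest of the list, with 779 in control siRNA and 1053 in silncMDSC (0.44). The 8 monocyte markers summed to 11391 and 11601, with a median of 0.05, and 5 were higher and 3 lower in silncMDSC. Vcan at -1.01 was the 1 gene at least 1.5-fold apart. Csf1r (4088 and 4347), F13a1 (2442 and 2433) and Cd14 (1852 and 1877) were the brightest. Ccr2 (0.34, and 0.29 to 0.41 on its other probe sets), Fn1 (0.20) and Cx3cr1 (0.37, near the floor) were higher, and Ms4a4c (-0.39) was lower. The 10 macrophage markers summed to 14769 and 11800, and all 10 were lower (9 after quantile normalization and 8 with the loess trend removed). Of these, 5 were at least 1.5-fold lower, Mrc1 (-0.93), Msr1 (-0.91), Apoe (-0.88), Maf (-0.85) and Mertk (-0.69), as were 1.42% of all genes. Adgre1 (3070 and 3068), C1qa (-0.03) and Cd68 (-0.11) were closer to level. Among dendritic cell markers, 9 passed the floor, of which 8 were higher in silncMDSC and 1, Cd209a (-0.11), was lower. Of the 9, 4 were 1.5-fold higher or more, H2-Eb1 (0.75), Ciita (0.70), Itgax (0.66) and Ccr7 (0.64), as were 0.948% of all genes. The other probe sets of Ciita above the floor gave only 0.09 and 0.38. The 10 markers found summed to 12347 and 17099, with H2-Aa (4661 and 6210) and H2-Ab1 (4379 and 5618) the brightest. Flt3, near the floor with 88.4 and 112 (0.34), and Zbtb46 (0.14, and 0.03 and 0.28 on its other probe sets above the floor) were dim. Xcr1 did not reach the floor. Several macrophage and dendritic cell markers thus differed in the same 2 cultures in which most listed burst receptors were lower. The oxidase genes were nearly level there on their brightest probe sets, although the dimmer Rac2 probe set differed by 0.38. The part of these markers in those values was not tested. In RNA of a whole culture, fewer cells of a type and less RNA per cell cannot be told apart.

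The remaining markers were read by the same rule. The 4 eosinophil markers above the floor had a median of 0.46, with Prg2 at 2022 and 2954, Prg3 at 411 and 467 and Epx as given above. The medians were -0.02 for B cell (4 genes), 0.12 for T and NK cell (5 genes, with Klrd1 at 0.91), 0.02 for mast cell and basophil (5 genes, with Mcpt8 at 4030 and 4082), 0.16 for erythroid (2 genes), 0.13 for platelet (5 genes) and 0.13 for stromal markers (3 genes). The mast cell and basophil markers went both ways, 3 higher and 2 lower, with Cpa3 at 1257 and 1750 (0.48) and Fcer1a at 194 and 143 (-0.44). The platelet list was uneven, with Itgb3 at 0.67 but Ppbp at -0.62 and Pf4, its brightest gene, at 7187 and 5343 (-0.43), and its summed intensity was 9911 in control siRNA and 7383 in silncMDSC.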

How the data were processed

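Bone marrow cells were cultured for 4 days after transfection and, per the labels, 6 µg of total RNA gave biotin-labeled cRNA for an Affymetrix mouse array. The values deposited by the authors were linear probe set intensities with a lowest value of exactly 1. The submitters' processing notes name RMA, with no version, which normally returns log2 values; how these were brought back to a linear scale and given a lower limit is not stated in any source used. The scanner files were not used here. The methods name limma, which cannot be fitted to 1 array against 1, so no test was run and the number of arrays limits the precision.

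Differences were log2(intensity + 1), silncMDSC minus control siRNA, and folds are on that scale, which understates those of dim probe sets. After 64 control probe sets were set apart, 34945 of 45037 probe sets had 1 gene symbol, 932 several and 9160 none. Genes were named from probe sets with 1 symbol and read from the brightest. A gene was kept when its higher value reached the median of both arrays. The text names every member, of each pathway list up to 4 genes with the largest differences and any 1.5-fold apart, and of each cell type list up to 3 of the brightest and any 1.5-fold apart. Other listed genes, and all letters of the promoter motifs, were chosen after values were seen. Members and lists were chosen with earlier results of these data known. Some genes of these lists are not reported here.

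Alternatives were median centring, a loess trend on level (span 0.3), quantile normalization, a pseudocount of 16, no floor, a floor on the mean of both arrays or at the 75th percentile, the mean of a gene's probe sets, no cross-hybridizing probe sets, a 1.5-fold size and lists without their farthest member. The procedure was run on simulated data with planted folds, which checks the calculation only and gives no measure of the error of these arrays. Python 3.11.15, pandas 2.3.3 and statsmodels 0.14.6 were used.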

Additional observations from a re-analysis of the deposited data

How the results depend on the processing

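Differences of the 7 oxidase genes were recomputed under the alternatives, which gave 63 values. Each stayed within 0.18 of its main value, the robust SD over all genes above the floor. The other floors and the removal of cross-hybridizing probe sets left all 7 unchanged, as they could not alter these bright readings. The mean of probe sets could not alter genes with 1 probe set. The 0.18 is wider than every main difference, so staying within it does not settle a direction. Across the alternatives the values ran from -0.05 to 0.22, the latter for Rac2 with the mean of its probe sets. The sign turned for Ncf1 with the mean of its probe sets (-0.04) and for Rac1 after quantile normalization (0.003). Medians of lists close to 0 turned sign under at least 1 alternative for NADPH supply (-0.07 to 0.06), the kinases (-0.06 to 0.03), the Rac exchange factors (-0.02 to 0.05), the Rac GTPases (-0.002 to 0.06), the flavocytochrome (-0.05 to 0.003), the ion balance list (-0.05 to 0.0001), B cell (-0.10 to 0.06) and mast cell and basophil markers (-0.03 to 0.04). The median of the burst receptors ran from -0.15 to -0.10. At 1.5-fold in place of 2-fold the count of genes apart was 282 in place of 36 over all genes, 1 for burst receptors, 5 for macrophage, 4 for dendritic cell, 1 for T and NK cell and 2 for platelet markers, each of these lists having 0 at 2-fold. The count of monocyte markers at 2-fold, 1 for Vcan, was 0 with the loess trend removed, after quantile normalization, with a pseudocount of 16 and with the mean of probe sets. The macrophage median was -0.25 without Mrc1, its farthest member. The dendritic cell median was 0.64 with a floor at the 75th percentile, 0.62 with the mean of probe sets and 0.65 without cross-hybridizing probe sets. With the floor at the 75th percentile, which leaves fewer genes, the medians were 0.48 for T and NK cell, -0.43 for platelet and -0.092 for stromal markers. No paired analysis was possible because each group held 1 array. Signal over background limits the dim oxidases, Nox4, Duox1 and Duoxa2, for which no difference is read.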
